A study of Homo sapiens with 2 samples.

Results

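The genes described here encode 6 integrin chains (ITGA4, ITGA5, ITGA6, ITGAL, ITGB1 and ITGB2), 2 adhesion ligands of leukocytes (ICAM1 and ICAM3), the selectin ligand gene SELPLG and the chemokine receptor gene CXCR4. They were chosen by gene symbol as adhesion and homing genes, with earlier results of these data known. All 10 were found among 50229 symbols, each with 1 row in the table. The cells are labelled ARP1, an established human line of malignant plasma cells (multiple myeloma), and poly(A) RNA was sequenced. The labels give 1 library as VCP knockdown (titled A_si) and 1 as control (titled A_NC). They are called the siVCP-labelled and siNC-labelled libraries here, and how the knockdown was made is not stated in the labels. Each group is a single library, so the spread between replicates is unknown and nothing was tested. Whether the libraries came from separate cultures is not stated in the labels.

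Integrins are receptors made of 1 alpha and 1 beta chain that hold cells to matrix and to other cells. Their affinity is switched from inside the cell when talin and kindlin bind the tail of the beta chain. Plasma cells and myeloma cells reach and stay in bone marrow through CXCR4, which senses the chemokine CXCL12 made by stroma, and through the integrin of ITGA4 and ITGB1, which binds VCAM-1 and fibronectin. The protein of SELPLG, PSGL-1, lets leukocytes roll on selectins, and ICAM-1 and ICAM-3 are ligands of LFA-1, the integrin of ITGAL and ITGB2.

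Estimated counts summed to 68872657 in the siVCP-labelled library and 72566092 in the siNC-labelled library. VCP itself, which encodes the ATPase p97, was not lower where the label says it was knocked down, with an FPKM (a level normalised for gene length and library size) of 65.9 in the siVCP-labelled library and 47.7 in the siNC-labelled library. Every direction below therefore refers to the library labels. Of 10 plasma cell markers 9 reached an FPKM of 1. The most abundant, XBP1, had 433.8 in the siVCP-labelled library and 436.9 in the siNC-labelled library. Others differed in both directions, with PRDM1 at 46.6 in the siVCP-labelled library and 69.8 in the siNC-labelled library, and SLAMF7 at 13.2 in the siVCP-labelled library and 8.53 in the siNC-labelled library. The extract protocol in the labels speaks of an adipose type, which does not match the labelled line. Markers of other cell types were low. Summed FPKM over 7 T cell markers was 1.75 in the siVCP-labelled library and 2.81 in the siNC-labelled library (highest, TRAC), with CD3D and CD8A at 0 in both. Over 8 myeloid markers it was 1.67 in the siVCP-labelled library and 2.39 in the siNC-labelled library (highest, CD68), with ITGAM, FCGR3A and S100A8 at 0 in both. Over 7 stromal, 9 endothelial and platelet, and 5 epithelial markers it was at most 1.79 in the siVCP-labelled library and 1.87 in the siNC-labelled library. Their part in the differences below was not tested.

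Of the members above an FPKM of 1, ITGB1 had the lowest ratio, at 1.80-fold lower in the siVCP-labelled library, and ITGA4, ITGAL, ICAM3 and SELPLG were lower by smaller factors. CXCR4 and ICAM1 had close to the same level in both libraries, and ITGA5, ITGA6 and ITGB2 were below an FPKM of 1 in both. In bulk RNA, fewer cells expressing a gene and less RNA per cell cannot be told apart. A gene counted as measured where its FPKM reached 1 in either library (11645 symbols), and the 7 measured members reached that level in both libraries. The log2 ratio is that of FPKM + 1, the siVCP-labelled library over the siNC-labelled library, and 1.5-fold is 0.58 on that scale. Of the 7 measured members 1, ITGB1, was at least 1.5-fold lower, against 5.87% of all measured genes. None was at least 1.5-fold higher, against 4.53% of all measured genes. The median log2 ratio of the 7 was -0.41, against -0.02 over all measured genes, and 6 of the 7 were below 0, against 52.8% of all measured genes. Over all 10 members, with those at low levels, the median was -0.12, against -0.020 over all genes with a count in either library. Of the 10, 8 were below 0, and the share of unfiltered genes below 0 was not computed. A 95% interval for counting error alone left out a plain ratio of 1 for 5 members and held it for 5.

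**Figure D1:**
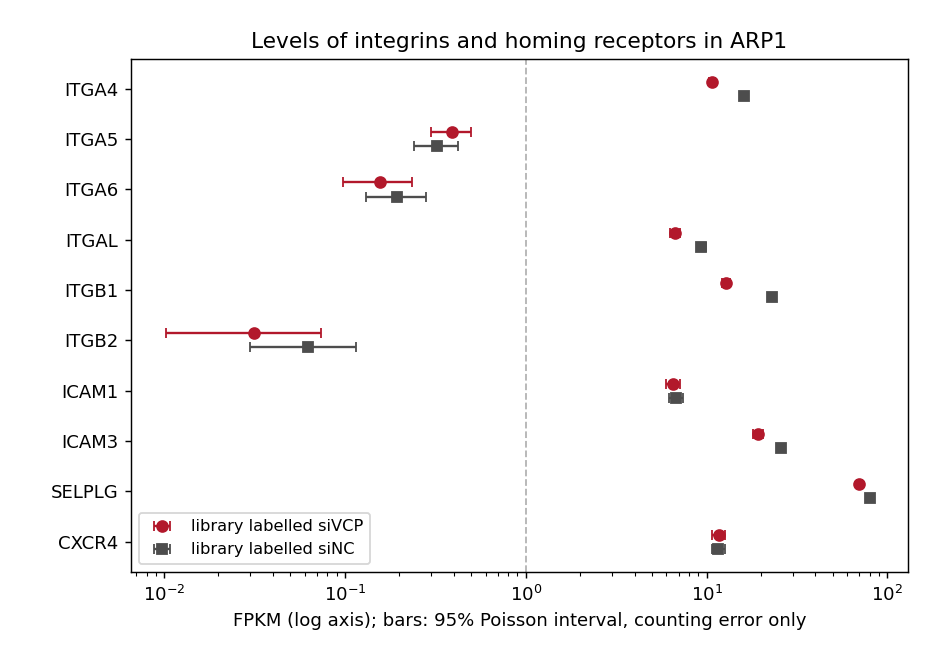
Level of each member on a logarithmic FPKM axis, with the siVCP-labelled library (red circles) above the siNC-labelled library (grey squares) and 95% Poisson intervals that cover counting error only. The dashed line marks an FPKM of 1. The intervals of ITGB1, ITGA4, ITGAL, ICAM3 and SELPLG do not overlap between the libraries, and those of CXCR4 and of ICAM1 do. ITGA5, ITGA6 and ITGB2 lie left of the line with wide intervals.

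ITGB1 (ENSG00000150093, chromosome 10, 32900318 to 33005792, minus strand; coordinates here are those of the deposited table, which match GRCh38) encodes the beta chain shared by the largest group of integrins. Its FPKM was 12.8 in the siVCP-labelled library (6356 estimated counts) and 23.0 in the siNC-labelled library (12059 estimated counts). ITGB1 was thus 1.80-fold lower in the siVCP-labelled library [1.69 to 1.91], where brackets give 95% intervals that cover counting error only. The log2 ratio was -0.80, and 2.58% of all measured genes had a lower one. It was the single member whose interval lay wholly beyond 1.5-fold.

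ITGA4 (ENSG00000115232, chromosome 2, 181457202 to 181527450, plus strand) encodes the alpha chain that pairs with the beta chains of ITGB1 and ITGB7. Its FPKM was 10.7 in the siVCP-labelled library (9404 estimated counts) and 16.2 in the siNC-labelled library (15012 estimated counts). By plain FPKM ratio it was 1.51-fold lower in the siVCP-labelled library [1.44 to 1.59], so that 2 of the 7 measured members, ITGB1 and ITGA4, were at least 1.5-fold lower on the plain scale, against 12.3% of all measured genes. On that scale 0 members were at least 1.5-fold higher, against 6.89% of all measured genes. With 1 added to each FPKM its log2 ratio was -0.56, just inside the 1.5-fold line, and 6.77% of measured genes had a lower ratio. The intervals of ITGB1 and ITGA4 did not overlap, so within these libraries the beta chain differed more than its alpha partner.

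The other alpha partners of ITGB1 among the members were nearly absent. ITGA5 (ENSG00000161638, chromosome 12, 54395261 to 54419266, minus strand), the alpha chain of the classical fibronectin receptor, had an FPKM of 0.390 in the siVCP-labelled library (243 counts) and 0.323 in the siNC-labelled library (211 counts). The ratio was 1.21 [0.822 to 1.78], and ITGA5 was the one member apart from CXCR4 with a log2 ratio above 0. ITGA6 (ENSG00000091409, chromosome 2, 172427354 to 172506459, plus strand), an alpha chain of laminin receptors, had 0.156 in the siVCP-labelled library (88 counts) and 0.195 in the siNC-labelled library (116 counts). The ratio was 0.799 [0.438 to 1.44]. A difference in either gene was not detectable at this depth. ITGA6-AS1, on the opposite strand over ITGA6, held 19 counts in the siVCP-labelled library and 58 in the siNC-labelled library, and without a stated strand setting such reads cannot be told apart.

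The chains of LFA-1 were unequal in level. ITGAL (ENSG00000005844, chromosome 16, 30472719 to 30523185, plus strand), its alpha chain, had an FPKM of 6.71 in the siVCP-labelled library (3557 counts) and 9.37 in the siNC-labelled library (5237 counts). ITGAL was 1.40-fold lower in the siVCP-labelled library [1.28 to 1.52], a log2 ratio of -0.43. ITGB2 (ENSG00000160255, chromosome 21, 44885953 to 44931989, minus strand), the beta chain that ITGAL pairs with, had an FPKM of 0.0316 in the siVCP-labelled library (19 counts, about 5 fragments) and 0.0624 in the siNC-labelled library (39 counts, about 10 fragments). The interval of its ratio of 0.506 ran from 0.136 to 1.63. The counting interval of the ITGB2 level was 0.0103 to 0.0737 in the siVCP-labelled library and 0.0299 to 0.115 in the siNC-labelled library, below the level of ITGAL in both. ITGB2 was the single member overlapped by a row with counts on its own strand, and ITGB2-AS1 on the opposite strand had more counts than ITGB2, 79 in the siVCP-labelled library and 111 in the siNC-labelled library.

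The 20 other integrin chains put these levels in context. In all, 5 of them were measured, with a median log2 ratio of -0.04. Of the 5, 0 were at least 1.5-fold higher and 0 lower, against 4.53% and 5.87% of all measured genes. ITGB7, the beta chain that pairs with ITGA4 and ITGAE, had an FPKM of 352.1 in the siVCP-labelled library and 362.8 in the siNC-labelled library, a ratio of 0.970 [0.956 to 0.985]. ITGB7 made up 89.9% of the summed FPKM of the 8 beta chains in the siVCP-labelled library and 88.3% in the siNC-labelled library. ITGB1 made up 3.27% in the siVCP-labelled library and 5.60% in the siNC-labelled library. The ITGB7 transcript was therefore 27.5-fold above that of ITGB1 in the siVCP-labelled library and 15.8-fold above it in the siNC-labelled library.

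ITGB5, a partner of ITGAV, had an FPKM of 26.4 in the siVCP-labelled library and 24.6 in the siNC-labelled library, a ratio of 1.07 [1.02 to 1.12]. It was 2.06-fold above ITGB1 in the siVCP-labelled library and 1.07-fold above it in the siNC-labelled library, where the counting intervals of the levels overlapped. Among the alpha chains, ITGA3 had a log2 ratio of -0.44, ITGAV -0.24 and ITGAE 0.10. ITGAE passed the filter only through the siVCP-labelled library, with an FPKM of 1.12 there and 0.977 in the siNC-labelled library. Summed over all 18 alpha chains, FPKM was 23.6 in the siVCP-labelled library and 33.6 in the siNC-labelled library, a ratio of 0.702, and over all 8 beta chains it was 391.6 in the siVCP-labelled library and 411.1 in the siNC-labelled library, a ratio of 0.953. ITGA4 was the most abundant alpha chain in both, with 45.4% of that sum in the siVCP-labelled library and 48.2% in the siNC-labelled library. ITGB7 overlaps ZNF740 on the opposite strand, which had 18364 counts in the siVCP-labelled library and 17681 in the siNC-labelled library.

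**Figure D2:**
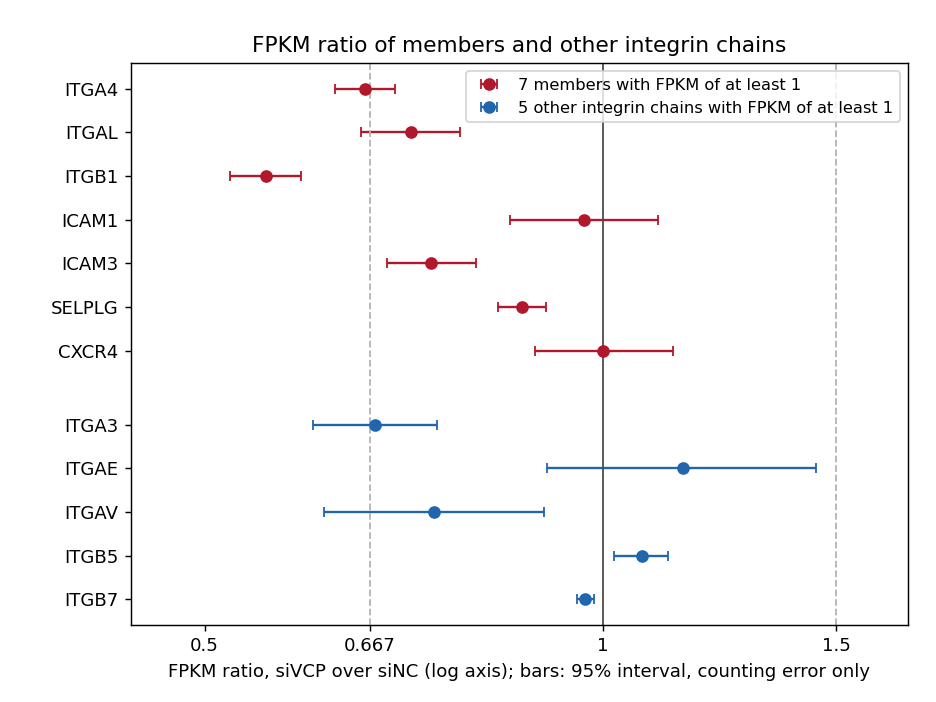
Plain FPKM ratio of the siVCP-labelled library over the siNC-labelled library on a logarithmic axis, with 95% intervals for counting error only, for the 7 measured members (red) and the 5 other measured integrin chains (blue). The solid line is a ratio of 1 and the dashed lines are 1.5-fold lower and higher. ITGB1 lies wholly left of the lower dashed line, the intervals of ITGA4, ITGAL, ITGA3 and ITGAV span it, and CXCR4 [0.889 to 1.13] and ICAM1 [0.851 to 1.10] span the solid line.

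The ligands among the members differed from each other. ICAM3 (ENSG00000076662, chromosome 19, 10333776 to 10339635, minus strand), an LFA-1 ligand found on resting leukocytes, had an FPKM of 19.2 in the siVCP-labelled library (4425 counts) and 25.9 in the siNC-labelled library (6289 counts). ICAM3 was 1.35-fold lower in the siVCP-labelled library [1.25 to 1.46], a log2 ratio of -0.41. AC114271, on its opposite strand, held 693 counts in the siVCP-labelled library and 811 in the siNC-labelled library. ICAM1 (ENSG00000090339, chromosome 19, 10271093 to 10285583, plus strand), which inflammatory signals induce through NF-kappaB, had an FPKM of 6.55 in the siVCP-labelled library (1864 counts) and 6.77 in the siNC-labelled library (2035 counts). The ratio was 0.967 [0.851 to 1.10], so a difference of either sign within that interval was not detectable.

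SELPLG (ENSG00000110876, chromosome 12, 108621895 to 108633894, minus strand) was the most abundant member. Its FPKM was 69.9 in the siVCP-labelled library (16230 counts), above 95.2% of measured genes there, and 80.5 in the siNC-labelled library (19715 counts), above 96.2% there. SELPLG was 1.15-fold lower in the siVCP-labelled library [1.10 to 1.20], a log2 ratio of -0.20. The interval is narrow and the difference small, and 28.8% of measured genes had a lower ratio.

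CXCR4 (ENSG00000121966, chromosome 2, 136114349 to 136118149, minus strand), the receptor of CXCL12, had 11.7 FPKM in the siVCP-labelled library (2127 counts) and 11.6 in the siNC-labelled library (2236 counts). The log2 ratio was 0.0038, and the interval of the plain ratio, 0.889 to 1.13, leaves out a difference of 1.5-fold as far as counting error goes. No other row with a count overlapped CXCR4 or ITGA4.

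The order of the levels differed between the libraries. In the siVCP-labelled library the order was SELPLG, ICAM3, ITGB1, CXCR4, ITGA4, ITGAL and ICAM1. There the counting interval of the CXCR4 level [10.7 to 12.7] overlapped those of ITGB1 [12.2 to 13.4] and ITGA4 [10.3 to 11.1], and ITGAL [6.28 to 7.17] overlapped ICAM1 [5.97 to 7.17]. In the siNC-labelled library the order was SELPLG, ICAM3, ITGB1, ITGA4, CXCR4, ITGAL and ICAM1, with ITGA4 at [15.7 to 16.7], CXCR4 at [10.7 to 12.6], ITGAL at [8.87 to 9.90] and ICAM1 at [6.20 to 7.39]. No neighbours overlapped in that library. With 1 library per group, no likeness of pattern to other genes could be measured.

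The start regions of 4 members are shown because these are the members with the lowest log2 ratios, ITGB1 and ITGA4, and those nearest to 0, ICAM1 and CXCR4. Each runs over 300 bases, 250 before to 50 after the first start that RefSeq lists on GRCh38.p14, 5′ to 3′ on the strand of the gene. They are chr10:32958181-32958480 (minus strand) for ITGB1, chr2:181457136-181457435 (plus strand) for ITGA4, chr19:10270870-10271169 (plus strand) for ICAM1 and chr2:136118100-136118399 (minus strand) for CXCR4. The regions of ITGA4, ICAM1 and CXCR4 hold the start of their deposited rows. That of ITGB1 lies inside its row, which on the minus strand starts at 33005792. Capitals mark matches on either strand to the GC box GGGCGG, the TATA box TATAAA and the NF-kappaB motif GGAAATTCC.
ITGB1: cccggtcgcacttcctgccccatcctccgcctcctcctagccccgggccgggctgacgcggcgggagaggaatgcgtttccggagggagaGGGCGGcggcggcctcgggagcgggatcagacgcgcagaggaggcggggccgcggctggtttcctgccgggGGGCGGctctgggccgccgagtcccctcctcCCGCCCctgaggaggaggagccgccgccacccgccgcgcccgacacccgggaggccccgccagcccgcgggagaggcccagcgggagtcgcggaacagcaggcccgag
ITGA4: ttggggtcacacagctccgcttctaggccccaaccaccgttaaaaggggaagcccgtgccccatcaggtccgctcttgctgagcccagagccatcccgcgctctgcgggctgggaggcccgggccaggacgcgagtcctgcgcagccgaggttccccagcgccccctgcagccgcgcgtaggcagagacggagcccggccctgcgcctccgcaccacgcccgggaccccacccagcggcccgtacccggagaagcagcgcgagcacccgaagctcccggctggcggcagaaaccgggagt
ICAM1: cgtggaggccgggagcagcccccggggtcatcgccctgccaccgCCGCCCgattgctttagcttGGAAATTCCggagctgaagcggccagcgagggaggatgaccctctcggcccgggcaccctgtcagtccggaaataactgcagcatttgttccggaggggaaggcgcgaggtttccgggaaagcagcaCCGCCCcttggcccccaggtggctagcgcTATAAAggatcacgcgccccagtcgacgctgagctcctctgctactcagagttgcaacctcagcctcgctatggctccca
CXCR4: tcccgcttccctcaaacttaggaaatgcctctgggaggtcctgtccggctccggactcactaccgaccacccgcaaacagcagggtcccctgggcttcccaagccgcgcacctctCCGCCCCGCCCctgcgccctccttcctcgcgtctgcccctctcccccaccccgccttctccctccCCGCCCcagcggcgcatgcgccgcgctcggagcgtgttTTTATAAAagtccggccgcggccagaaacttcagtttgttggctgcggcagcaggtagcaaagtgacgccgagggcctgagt
GC content was 78.3% for ITGB1, 72.3% for ITGA4, 64.7% for ICAM1 and 66.7% for CXCR4. ITGB1 held 3 GC boxes and neither other motif, and ITGA4 held no match to any of the 3 motifs. ICAM1 held 2 GC boxes, 1 TATA box and 1 NF-kappaB motif. CXCR4 held 3 GC boxes, of which a pair overlap, and 2 TATA box matches that are the overlapping strands of 1 run. Of 35116 start regions of the same length, 45.0% held the GC box, 11.5% the TATA box and 0.461% the NF-kappaB motif. A match is a run of letters and not a shown binding site.

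Log2 ratios followed transcript length and GC content across the 9674 measured genes that had these values. The median was 0.08 in the shortest quintile and -0.16 in the longest. It was -0.19 in the quintile lowest in GC and 0.07 in the highest. Quintile shares below refer to these genes only. The members lie at different places on both scales, and the part of length and GC content in their ratios was not tested. ITGB1, with a transcript of 3784 bases and 40.0% GC, lies in the quintile of measured genes with the lowest GC content, where the median log2 ratio was -0.19 and 7.91% of genes were at least 1.5-fold lower. Less that median, ITGB1 had -0.61, still past the 1.5-fold line. ITGA4, with 44.1% GC, lies in the second quintile, with a median of -0.07, and had -0.49 after subtraction. ITGAL (55.3% GC) and ICAM3 (60.3% GC) lie in quintiles with medians of 0.09 and 0.07, and had -0.52 and -0.49 after subtraction. CXCR4 (43.9% GC) had 0.07. The transcripts of ITGA4 (4189 bases) and ITGAL (5213 bases) are in the fourth quintile of length, with a median of -0.05, and had -0.50 and -0.38 after that median was subtracted. Among 345 genes that share both quintiles with ITGB1, the median was -0.17 and 8.41% were at least 1.5-fold lower.

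**Figure D3:**
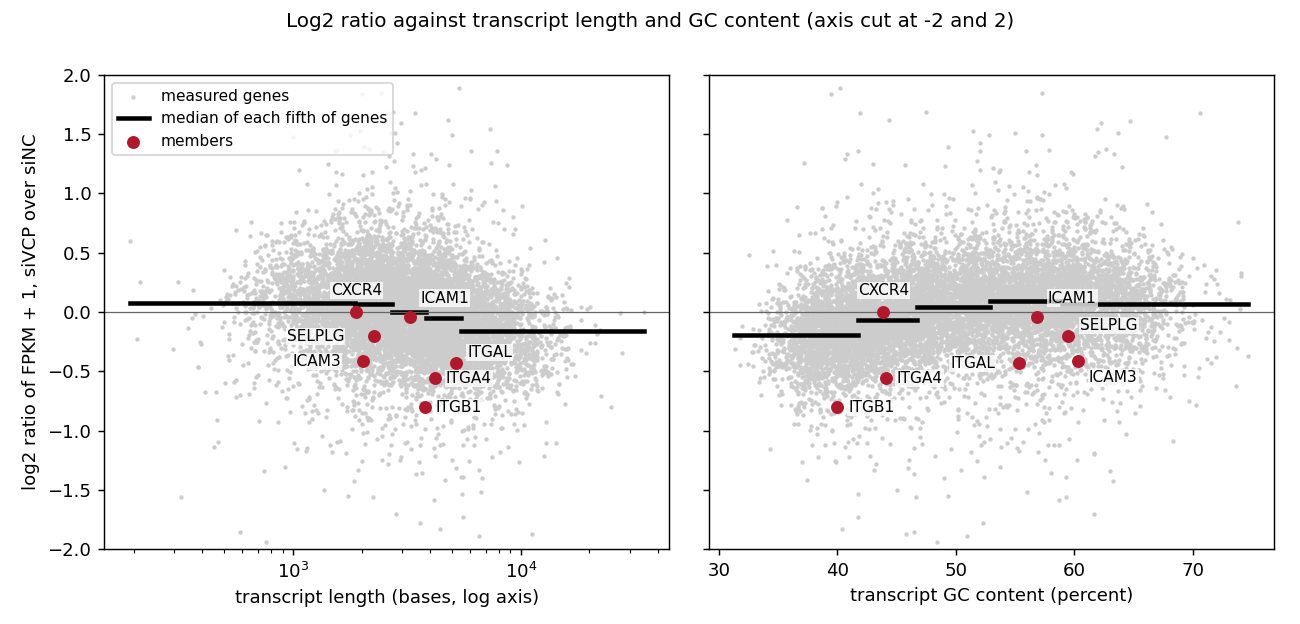
Log2 ratio of FPKM + 1 (siVCP-labelled over siNC-labelled library) against transcript length on a logarithmic axis (left) and transcript GC content in percent (right). Grey points are measured genes with a transcript length and GC content, black bars the median of each quintile of genes, and red points the 7 measured members. ITGB1 at -0.80 lies below the -0.19 median of the quintile with the lowest GC content, and ICAM3 and SELPLG lie below the 0.07 median of the quintile with the highest.

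Among 31 genes for integrin activators and adaptors, 24 were measured, with a median log2 ratio of 0.02. Of the 24, 0 were at least 1.5-fold higher and 1 lower, against 4.53% and 5.87% of all measured genes. The same shares are the reference for the lists below. FERMT1, the kindlin of epithelia, was the lower one, with an FPKM of 2.55 in the siVCP-labelled library and 4.84 in the siNC-labelled library (1.89-fold lower [1.63 to 2.21]). The other measured kindlin gene, FERMT3, was more abundant and went the other way. FERMT3 had an FPKM of 53.3 in the siVCP-labelled library and 43.2 in the siNC-labelled library, a log2 ratio of 0.30. The talin gene TLN1 had an FPKM of 58.7 in the siVCP-labelled library and 56.4 in the siNC-labelled library, a log2 ratio of 0.06. The tyrosine kinase gene PTK2B had a log2 ratio of -0.36 and RASGRP2, an activator of RAP1, had -0.31. LIMS1, an adaptor bound to integrin-linked kinase, had 0.45, SHARPIN, an integrin inhibitor, 0.40 and the signalling adaptor gene CRK 0.31. ACTN4, an actin crosslinker, was the most abundant in the siVCP-labelled library, with an FPKM of 118.6 against 99.0 in the siNC-labelled library.

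Of 24 other integrin ligands 6 were measured, with 0 higher, 0 lower and a median of -0.34. VCAM1, a cell-surface ligand of the ITGA4 integrins, had 4 counts in the siVCP-labelled library and 0 in the siNC-labelled library. The junction protein gene F11R had a log2 ratio of -0.50, the laminin chain gene LAMB1 -0.44 and ICAM5 -0.42. LAMC1, the most abundant, had -0.27, LAMA5 -0.21 and ICAM2, a further LFA-1 ligand, 0.30.

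Selectins and the enzymes that build their ligands numbered 18, of which 11 were measured, with 0 higher, 0 lower and a median of 0.04. FUT7, whose fucosyltransferase completes the sugar that selectins bind, had an FPKM of 0.0548 in the siVCP-labelled library (8 counts) and 0.130 in the siNC-labelled library (19 counts). TPST2, which sulphates tyrosines such as those of PSGL-1, had a log2 ratio of 0.51 and was the most abundant, with an FPKM of 20.7 in the siVCP-labelled library and 14.2 in the siNC-labelled library. The sialyltransferase gene ST3GAL6 had 0.43 and the GDP-fucose transporter gene SLC35C1 0.28. CD44, a hyaluronan receptor, had -0.50, the core O-glycan enzyme gene C1GALT1 -0.46 and the galactosyltransferase gene B4GALT1 -0.36.

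Of 21 other chemokine receptors 4 were measured, with 0 higher, 0 lower and a median of 0.13. CCR1 was far above CXCR4, with an FPKM of 99.7 in the siVCP-labelled library and 89.1 in the siNC-labelled library and a log2 ratio of 0.16. CCR10, a receptor of mucosal plasma cells, had 0.11 and CXCR3 0.16. The second CXCL12 receptor gene, ACKR3, had 0 counts in both libraries, and CXCL12 itself had 0 in the siVCP-labelled library and 8 in the siNC-labelled library.

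Of 22 genes for the CXCR4 ligand and regulators 16 were measured, with a median of 0.00. Among these, 0 were higher and 2 lower, against 4.53% and 5.87% of all measured genes. RGS1, a damper of G protein signalling, had an FPKM of 0.214 in the siVCP-labelled library and 1.15 in the siNC-labelled library, 5.38-fold lower [3.24 to 9.43]. RGS1 passed the filter only through the siNC-labelled library. PIM1, a kinase known to act on CXCR4 at the surface, had an FPKM of 22.0 in the siVCP-labelled library and 34.1 in the siNC-labelled library, 1.55-fold lower [1.45 to 1.66]. GRK5 had a log2 ratio of -0.27. ARRB2, whose arrestin uncouples receptors, had 0.45, RGS16 0.42 and HGS, a sorter of ubiquitin-marked receptors on endosomes, 0.32. MIF, an alternative CXCR4 ligand, was the most abundant, with an FPKM of 688.1 in the siVCP-labelled library and 667.0 in the siNC-labelled library.

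Of 25 other adhesion and egress receptors 13 were measured, with a median of -0.27. Among these, 0 were higher and 2 lower, against 4.53% and 5.87% of all measured genes. EMB, a glycoprotein linked to integrin-dependent adhesion, was 1.62-fold lower in the siVCP-labelled library [1.46 to 1.79], and the tetraspanin gene CD81 was 2.74-fold lower [2.06 to 3.69]. CD81 passed the filter only through the siNC-labelled library. S1PR1 did too, with an FPKM of 0.762 in the siVCP-labelled library and 1.51 in the siNC-labelled library. The hyaluronan receptor gene HMMR had a log2 ratio of -0.52. BSG (basigin), which partners monocarboxylate transporters, had 0.49, the integrin-binding tetraspanin gene CD151 0.27 and SDC1, the most abundant, 0.20.

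**Figure D4:**
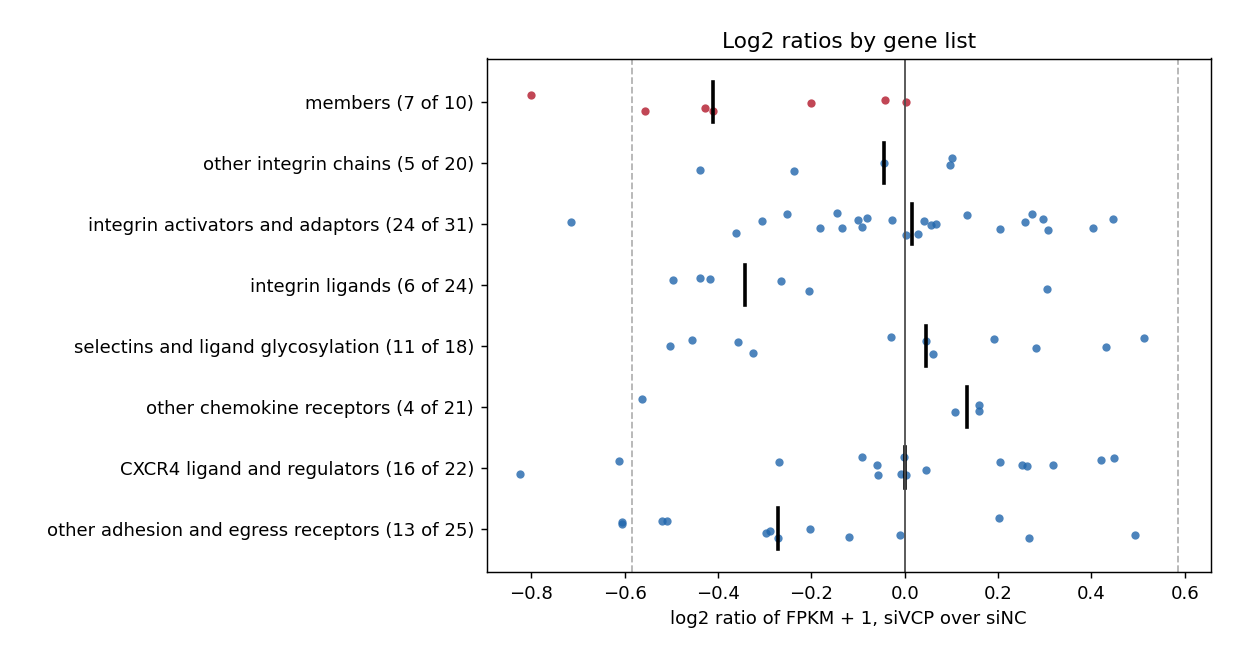
Log2 ratio of FPKM + 1 (siVCP-labelled over siNC-labelled library) for each measured gene of the members (red) and of the 7 related lists (blue), with the number measured of the number listed. Black bars are list medians and dashed lines mark 1.5-fold. The members' median lies at -0.41 and that of integrin ligands at -0.34, and no point lies right of the upper dashed line.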

How the data were processed

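Poly(A) RNA of ARP1 gave 1 siVCP-labelled and 1 siNC-labelled library, read from both ends per the labels' protocols. FPKM values and estimated counts per gene are used as the authors deposited them. HISAT2 2.0 and StringTie 1.3.0 are named, per the submitters' processing notes, with no role. Build, annotation and strand setting are not given in the sources used here. Among 58394 gene identifiers shared with GENCODE 29, 90.6% had the same start or end on GRCh38.

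Rows with 0 counts carry a floor FPKM, set to 0 here. Rows of 1 symbol were summed. Low counts pile up at multiples of 4 (1205 rows at 4 in the siVCP-labelled library, 417 at 3, 244 at 5), so 1 fragment was inferred to add about 4 counts. Intervals are exact conditional binomial (ratios) or exact Poisson (levels) 95% intervals on counts divided by 4. Lacking molecular identifiers, reads may be copies of 1 molecule, which no interval covers. Transcript length and GC content were taken from GENCODE 29 (longest basic coding transcript) for 83.1% of measured genes. Genes with these values were split into quintiles of each.

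The members and lists were chosen with earlier results of these data known. Named genes are the members, up to 3 highest and 3 lowest measured genes and the most abundant gene of each related list, the highest gene of marker lists, and VCP. PRDM1, SLAMF7, VCAM1, FUT7, ACKR3, CXCL12, FERMT3, TLN1, S1PR1 and MAF were added after their values were seen. One gene of the chemokine receptor list that this rule names is not reported here. No count model was fitted and nothing was tested. The steps were tested on simulated data. Start regions of 7 of the 10 members were in the RefSeq table. Software was scipy 1.17.1, pandas 2.3.3 and numpy 2.4.6 under Python 3.11.15, with figures from matplotlib 3.10.9.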

Additional observations from a re-analysis of the deposited data

How the results depend on the processing

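No paired analysis was possible because siVCP and siNC had 1 library each, and leaving out a library would leave no comparison. The settings that subtract GC medians were chosen after seeing the data. ITGB1 stayed at least 1.5-fold lower in all settings but the 2-fold threshold, where 0 members passed, and with a pseudocount of 0.1 ITGA4 joined it, so that 2 passed. No member was at least 1.5-fold higher in any setting. Of 90 recomputed log2 ratios of members, 72 stayed within the counting interval of the ratio, put on the scale of log2 of FPKM + 1, and 18 moved out of it. On that scale the intervals of genes below FPKM 1 are narrow, so that ITGA6 and ITGB2 moved out although the same values lie inside the intervals of their plain ratios. With a pseudocount of 0.1, ITGA6 had -0.21 and ITGB2 -0.30. With a pseudocount of 5, ITGB1 had -0.65, ITGA4 -0.43 and ITGAL -0.30. Rescaled to the same sum, ITGB2 had -0.12. With CPM from the counts, ITGA6 had -0.17 and ITGB2 -0.26. Less the median of the length quintile, ITGA6 had 0.11 and SELPLG -0.27. Less the median of the GC quintile, ITGB1 had -0.61, ITGB2 -0.12 and SELPLG -0.27. Less the median of genes sharing both quintiles, ITGB1 had -0.63, ITGA4 -0.46, SELPLG -0.29, ITGA6 0.14 and ITGB2 -0.10. ITGA6, ITGA5 and CXCR4 changed sign. ITGA6 was above 0 in all 3 subtractions, ITGA5 had -0.02 less GC medians and -0.01 less medians of both, and CXCR4 had -0.06 less length medians. The members' median was -0.30 with a pseudocount of 5, -0.12 without a filter and -0.28 after rescaling to the same sum, where 8 members passed the filter.

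Of 88 recomputed medians, of the members and the 7 related lists, 74 stayed within 0.1 of the value given above and 14 did not. With a pseudocount of 5 they were -0.22 for integrin ligands and -0.16 for other adhesion receptors. Without a filter they were -0.040 for integrin ligands, -0.011 for other chemokine receptors, below 0 unlike the value of 0.13 above, and -0.12 for other adhesion receptors. Among genes reaching FPKM 5 they were 0.25 for the CXCR4 ligand and regulators and -0.16 for other adhesion receptors. Rescaled to the same sum they were -0.22 for other integrin chains and -0.23 for integrin ligands. Less the median of the length quintile, integrin ligands had -0.20, and less that of both quintiles, the CXCR4 ligand and regulators had 0.14. Of 168 counts of list genes past a threshold, 24 moved. Over all 11645 measured genes, 528 were at least 1.5-fold higher and 684 lower. Of the same 11645 genes, a pseudocount of 0.1 gave 770 higher and 1351 lower, and a pseudocount of 5 gave 163 and 141. The minimum of FPKM 5 gave 328 and 288 of only 6245 genes. Rescaling to the same sum let 15172 genes pass the filter, of which 1109 were higher and 1740 lower. Medians were subtracted only for the 9674 measured genes with a transcript length, so those counts cover fewer genes. Of the 9674, 323 were higher and 379 lower less length medians. Less GC medians the counts were 338 and 381, and less medians of both 304 and 353. The 2-fold threshold gave 122 and 153 of 11645 genes. Except where a setting changes the genes or the scale by construction, the cause was not tested.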

Other observations

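MAF encodes a transcription factor that is known to drive ITGB7 in myeloma. MAF had an FPKM of 48.5 in the siVCP-labelled library and 90.9 in the siNC-labelled library, a plain ratio of 0.533 [0.518 to 0.549, 95% interval for counting error only] and a log2 ratio of FPKM + 1 of -0.89. ITGB7 had 352.1 in the siVCP-labelled library and 362.8 in the siNC-labelled library, a ratio of 0.970 [0.956 to 0.985]. No relation between the genes can be tested with 1 library per group.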
